A study of Danio rerio with 9 samples.

Results

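Atrioventricular valve tissue of zebrafish (Danio rerio) was compared between hearts 21 d after ablation of valve cells and uninjured hearts, over every gene with a normalised count of 10 or more in 3 or more of the 6 libraries. That rule kept 16614 of 21692 genes. The 3 libraries of the 21 d group came from fish bathed for 6 h in 2.5 mM metronidazole, a prodrug that a bacterial nitroreductase turns toxic inside the cells that carry it. The 3 libraries of the uninjured group are labelled only as uninjured. A further 3 libraries, taken 48 h after the same bath, entered the fit, and their values stand beside the 21 d values. Tissue for a library is given as 2 hearts; the valves were cut from cryosections by laser capture microdissection, and polyA RNA was sequenced. The labels give no transgene, promoter, strain, age, sex or time of day of collection. Drug exposure of the uninjured fish is not stated, nor is the number of fish behind the libraries of 1 group. The p-values therefore measure the spread between these libraries, which may be technical. In bulk tissue, fewer cells of a type and less RNA per cell cannot be told apart.

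The atrioventricular valve separates atrium and ventricle. Its leaflets hold a core of interstitial cells that lay down collagen, elastic fibres and proteoglycans, under a sheet of endothelial cells exposed to blood flow. The zebrafish heart can regenerate lost tissue, and the question put by the comparison is what still differs from uninjured valve tissue 21 d after the cells were lost.

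Column totals of the 6 libraries ran from 18877857 to 21616553 normalised counts, and 3463 to 5143 genes per library were at 0. Across genes, Spearman correlations between libraries were 0.910 to 0.924 within the 21 d group, 0.904 to 0.922 within the uninjured group and 0.873 to 0.920 between them. Heart-muscle markers, the tissue around the valve, held 8.10% ± 0.720 of all values at 21 d and 7.94% ± 0.739 in uninjured tissue (SD, n = 3 each). Valve interstitial matrix genes were present in all 6 libraries, with 0.328% to 0.342% of the values at 21 d and 0.417% to 0.492% in uninjured tissue. Endothelial markers held 0.272% ± 0.00897 at 21 d and 0.302% ± 0.0524 in uninjured tissue. Red-cell markers varied widely, from 6.16% to 8.96% at 21 d and from 4.12% to 8.52% in uninjured tissue.

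At 21 d, 85 genes (0.512% of those tested) were higher and 160 genes (0.963%) were lower than in uninjured tissue at an adjusted p under 0.05 (limma, Benjamini-Hochberg adjustment over all tested genes). Sizes of change given with an adjusted p, also after "rose by" or "fell by", are log2 fold changes of 21 d over uninjured tissue on the log2(normalised count + 1) scale. Of these, 68 higher and 128 lower genes differed at least 2-fold. The same fit put 731 genes (4.4%) higher and 1126 genes (6.78%) lower at 48 h, against the same uninjured libraries. These shares of all tested genes are the background for the list counts below, at each time. The lists and their members were chosen with earlier results of these data known. A list share above this background is therefore no independent test of the list. At 21 d the lower genes included oxygen-sensing hydroxylases, glycolytic enzymes, collagen-modifying enzymes, elastic-fibre genes and growth hormone. Nuclear receptors of the clock, feedback genes of receptor tyrosine kinase signalling and macrophage genes were among the higher ones. The median log2 fold change of all tested genes was 0.02. No value overlapped between the groups for any of the 245 genes that passed, against 18.9% of all tested genes without overlap. The test itself favours genes whose groups lie apart, so this is no separate evidence. Many calls were lost when 1 library was left out of the fit. Of the 245 genes, 57, 13 higher and 44 lower, missed the threshold in none of 9 such fits. A gene that the filter dropped from a fit was counted as not lost there. Among the 6 libraries of the 2 groups, the losses ran from 121 calls without uninjured 3 to 158 without uninjured 2. Each left-out library also leaves fewer residual degrees of freedom. Without a mean-variance trend in the fit, only 4 of the 85 higher and 18 of the 160 lower calls remained. A call said below to hold without each library in turn may be among those lost there.

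**Figure D1:**
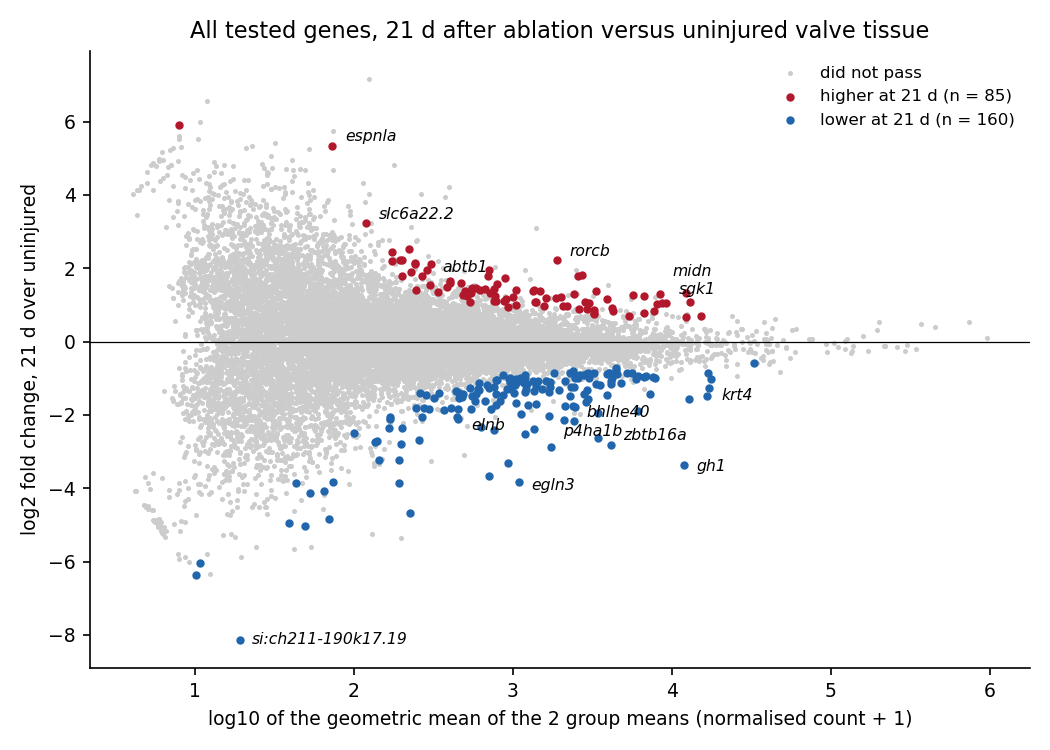
Log2 fold change of 21 d over uninjured tissue (vertical axis) against log10 of the geometric mean of the 2 group means of normalised count + 1 (horizontal axis) for 16614 genes. Red points are the 85 genes higher at 21 d, blue points the 160 genes lower, and grey points did not pass. The labelled genes include egln3 at -3.83, gh1 at -3.37 and p4ha1b at -2.87 below 0, and rorcb at 2.21 above it.

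The plot of all tested genes sets each gene's level beside its change. Of the 245 genes that passed, 2 had a mean under 50 normalised counts.

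Of the lists examined, that of oxygen sensing and glycolysis held the most lower genes. Cells sense oxygen through prolyl hydroxylases that mark the hypoxia-inducible factor for destruction by the von Hippel-Lindau protein, and low oxygen stabilises the factor, which turns on glycolytic genes and several of the hydroxylases themselves. Of 67 tested members of a hypoxia and glycolysis list, 17 fell (25.4%, against a background of 0.963%) and 0 rose. The median log2 fold change of the list was -0.66, against 0.02 over all genes, and 13 of the 67 members lay above 0. At 48 h, 31 members were lower and 1 was higher, with a median of -0.89.

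The hydroxylase gene egln3 had 261, 387 and 230 normalised counts at 21 d, against 3848, 4450 and 3974 in uninjured tissue. The highest 21 d library lay far below the lowest uninjured one. Its log2 fold change was -3.83 (SE 0.27, adjusted p = 7.1e-08), and at 48 h it was -3.21. The related prolyl hydroxylase egln1b had 67, 160 and 86 at 21 d and 563, 678 and 655 in uninjured tissue. It fell by 2.68 (SE 0.50, adjusted p = 0.00761). For egln1b the groups were far apart, and relative to their mean the 21 d libraries varied more than the uninjured ones. Other parts of the sensor fell too. The von Hippel-Lindau gene vhl averaged 335 ± 107 at 21 d and 904 ± 88.1 in uninjured tissue, and hif1an, which hydroxylates an asparagine of the factor, averaged 617 ± 81.5 at 21 d and 1530 ± 273.0 in uninjured tissue (SD, n = 3 each). Their log2 fold changes were -1.48 (adjusted p = 0.02) and -1.30 (adjusted p = 0.0143). Among targets known from mammals, ankrd37 had 224, 240 and 394 at 21 d and 1640, 1216 and 1337 in uninjured tissue, and fell by 2.32 (SE 0.40, adjusted p = 0.00337). The ankrd37 groups lay well apart. The calls of egln3 and ankrd37 held without each library in turn. That of egln1b was lost without 21 d 1, 21 d 3 or uninjured 2 (adjusted p up to 0.057), that of vhl without any of the 6 libraries but 21 d 1 (up to 0.121), and that of hif1an without 21 d 2, 21 d 3, uninjured 2 or uninjured 3 (up to 0.0957).

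Genes of glycolysis and of the fate of pyruvate were also among the 17. The glucose transporter gene slc2a3b averaged 210.0 ± 27.2 at 21 d and 560.3 ± 117.0 in uninjured tissue. Hexokinase hk1, the entry step of the pathway, had 4335, 4216 and 4028 at 21 d and 7466, 8389 and 6976 in uninjured tissue, and fell by 0.86 (SE 0.16, adjusted p = 0.00846). The hk1 libraries sat close together within each group, with a wide gap between groups. The bifunctional enzyme pfkfb3, which makes the activator of phosphofructokinase, averaged 430.0 ± 88.1 at 21 d and 1424 ± 270.0 in uninjured tissue. The aldolases aldocb (log2 fold change -1.17, adjusted p = 0.00862) and aldoaa (-0.60, adjusted p = 0.0285) and the mutase pgam1a (-0.90, adjusted p = 0.022) fell as well. Pyruvate dehydrogenase kinases, which inhibit pyruvate dehydrogenase, fell in 3 cases: pdk3a (-2.35, adjusted p = 0.019), pdk2b (-1.45, adjusted p = 0.0282) and pdk4 (-0.99, adjusted p = 0.0131). The mitophagy receptor bnip3lb fell by 0.85 (adjusted p = 0.0492), the jumonji-family gene jmjd6 fell by 1.43 (adjusted p = 0.0154), and both are in the plot of the list. Of 36 citric-acid cycle genes and 97 nuclear genes of oxidative phosphorylation, 0 passed in either direction in limma, with medians of -0.04 and -0.07. At an unadjusted p under 0.05, 2 citric-acid cycle genes were higher and 1 lower, and 2 oxidative phosphorylation genes were higher and 2 lower.

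Of the 17 lower genes, egln3, ankrd37 and the collagen hydroxylase gene p4ha1b, described with the matrix, passed without each library in turn. The other 14 missed the threshold without at least 1 library, with highest adjusted p-values between 0.057 and 0.265. Leaving out uninjured 2 ended 13 of the 17 calls, 21 d 3 ended 12, 21 d 2 ended 11, uninjured 3 ended 8, 21 d 1 and uninjured 1 ended 6 each, and 48 h 3 ended 1. Without a mean-variance trend in the fit, 3 members fell. The list median stayed between -0.69 and -0.55 over all settings tried.

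**Figure D2:**
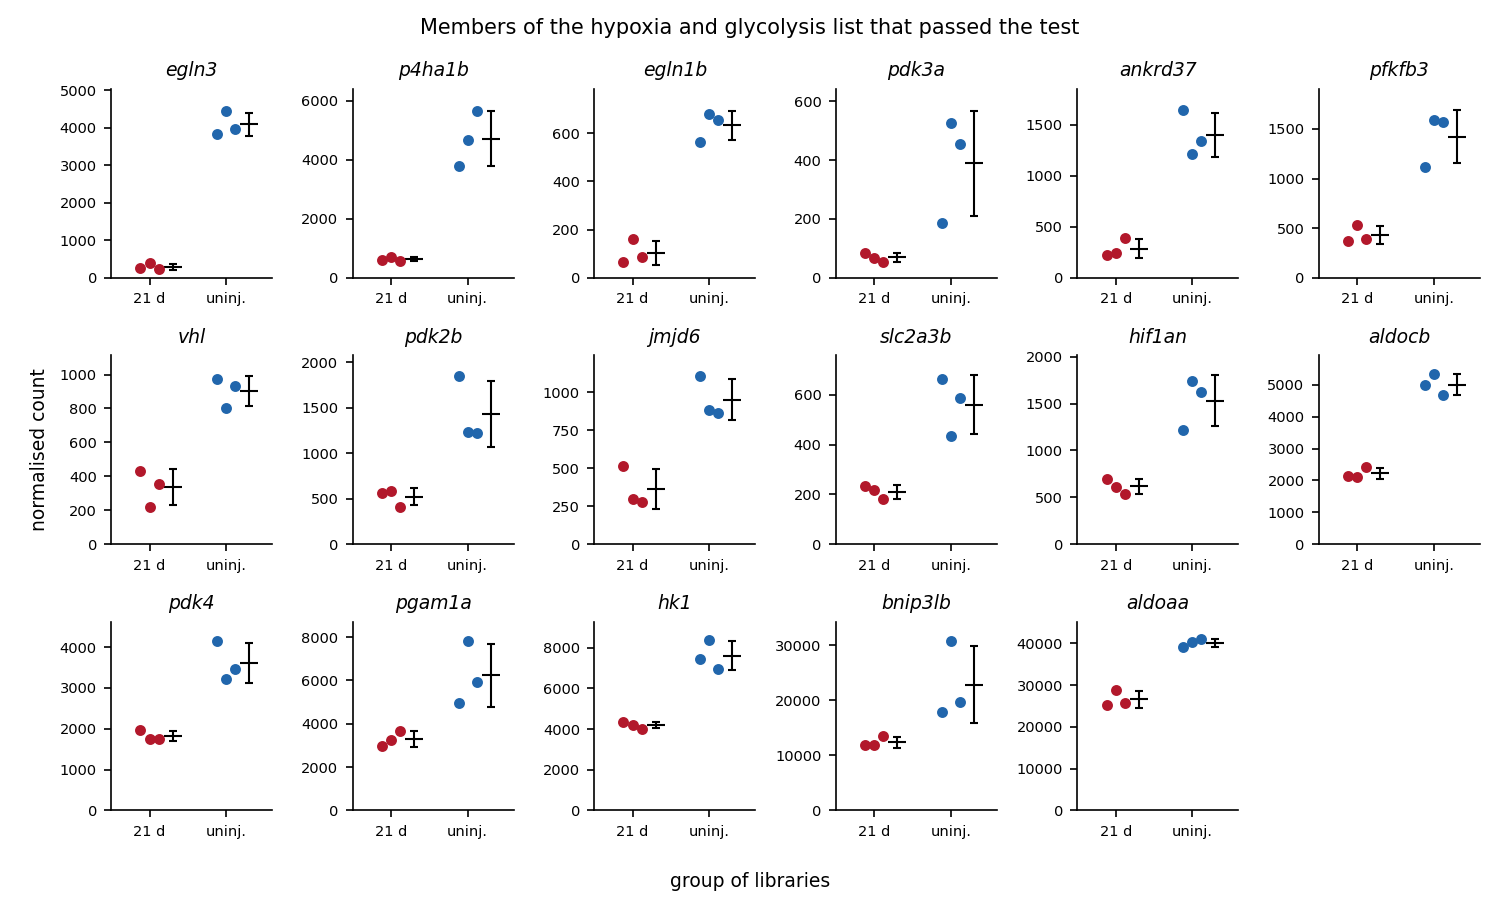
Normalised counts (vertical axes, each from 0) of the 17 members of the hypoxia and glycolysis list that passed, in the 3 libraries at 21 d (red, left) and the 3 uninjured libraries (blue, right), with the mean and SD beside the points. In every panel the 21 d libraries lie below the uninjured ones, by 14.3-fold for egln3 and by 1.51-fold for aldoaa on the model's scale.

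Collagen assembly genes fell too, and p4ha1b belongs to both lists. Prolyl hydroxylases of collagen also need oxygen. Collagen chains are hydroxylated on proline and lysine in the endoplasmic reticulum, trimmed outside the cell by procollagen proteinases and cross-linked by lysyl oxidases. Of 43 tested genes for fibrillar collagens and their assembly, 9 fell (20.9%, background 0.963%) and 0 rose, with a list median of -0.57. Of the 43, 5 lay above 0, and at an unadjusted p under 0.05, 22 were lower and 0 higher. Over all 16614 tested genes, 2075 reached that level in either direction. At 48 h, 22 of them were lower and 2 higher. Without a mean-variance trend in the fit, 1 fell at 21 d.

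Of the 9, 7 encode enzymes or a helper of one, and 2 encode collagen chains. The prolyl hydroxylase subunit p4ha1b had 618, 702 and 590 at 21 d and 3802, 4677 and 5671 in uninjured tissue. Its log2 fold change was -2.87 (SE 0.25, adjusted p = 7.4e-07) at 21 d and -2.15 at 48 h. A second subunit gene, p4ha2, averaged 274 ± 62.4 at 21 d and 694 ± 118 in uninjured tissue (adjusted p = 0.0306). The lysyl hydroxylase plod1a had 590, 506 and 585 at 21 d against 2040, 2216 and 2420 in uninjured tissue, and fell by 1.99 (SE 0.26, adjusted p = 0.00015). Both hydroxylases showed little spread at 21 d and no overlap. The lysyl oxidase loxa had 421, 263 and 315 at 21 d and 1540, 1881 and 1783 in uninjured tissue (log2 fold change -2.40, SE 0.32, adjusted p = 0.00017), and its relative loxl1 fell by 0.87 (adjusted p = 0.0134). Of the procollagen proteinases and their enhancer, bmp1a fell by 1.85 (adjusted p = 0.00581) and pcolcea by 0.98 (adjusted p = 0.00538). The chains that passed were col16a1 (log2 fold change -1.25, adjusted p = 0.00581), which belongs to the fibril-associated collagens, and col8a2 (-2.78, adjusted p = 0.0412), a short-chain collagen. The calls of p4ha1b, plod1a, loxa and pcolcea held without each library in turn. That of bmp1a was lost without uninjured 3 (adjusted p = 0.0518), that of col16a1 without uninjured 2 (0.057) and that of loxl1 without 21 d 2, 21 d 3 or uninjured 2 (up to 0.105). Those of p4ha2 and col8a2 were lost without any of the 6 libraries, except p4ha2 without 21 d 3 (up to 0.129 and 0.168).

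The fibrillar chain col1a1b, reported whatever its result, had 39138, 36742 and 41873 at 21 d and 41866, 49926 and 48160 in uninjured tissue. The highest 21 d library reached the lowest uninjured one. Its log2 fold change was -0.25 with a 95% interval of -0.55 to 0.05 (adjusted p = 0.518), and at 48 h it was -1.50. This single chain does not stand for the other chains of the list.

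Elastic fibres give valve leaflets their recoil, and 2 of their genes were among the lower ones. Elastin b (elnb) had 597, 439 and 417 at 21 d and 1961, 4224 and 2580 in uninjured tissue, and fell by 2.54 (SE 0.32, adjusted p = 0.00014). The highest 21 d library lay well below the lowest uninjured one, and the uninjured libraries differed widely among themselves. Fibulin 5 (fbln5), which guides elastin onto fibres, averaged 835 ± 311 at 21 d and 3350 ± 895.0 in uninjured tissue (log2 fold change -2.03, adjusted p = 0.00661). At 48 h, elnb stood at -5.17 and fbln5 at -3.93. The proteoglycan versican (vcanb) averaged 2309 ± 386 at 21 d and 5351 ± 1828 in uninjured tissue (log2 fold change -1.17, adjusted p = 0.0126). These were the 3 of 28 valve interstitial matrix genes that fell, with 0 rising and a median of -0.58, against 15 lower and a median of -1.76 at 48 h. The calls of elnb and fbln5 held without each library in turn, and that of vcanb was lost without 21 d 1, uninjured 2 or uninjured 3 (up to 0.0835).

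Other interstitial matrix genes did not pass. Lumican (lum), a collagen-binding proteoglycan, had 380, 656 and 1001 at 21 d and 1621, 3706 and 2024 in uninjured tissue. The groups did not overlap, and the log2 fold change of lum was -1.87 (95% interval -3.31 to -0.43, adjusted p = 0.253). At 48 h lum had 117, 17 and 74, and those libraries enter its error: it passed without 48 h 2 (adjusted p = 0.0136) and in a fit of the 6 libraries alone (0.0292). For decorin (dcn), another such proteoglycan, the log2 fold change was -0.32 (95% interval -0.62 to -0.03, adjusted p = 0.336), against -1.85 at 48 h. The matricellular gene tgfbi had -0.85 (95% interval -1.32 to -0.38, adjusted p = 0.0675), and postnb, encoding periostin, -0.22 (-0.71 to 0.28, adjusted p = 0.784), where they were -1.71 and -2.44 at 48 h. The tgfbi gene passed without uninjured 1 (adjusted p = 0.0345), in a fit of the 6 libraries alone (0.0332) and with array weights (0.0212). The gelatinase gene mmp2 had -0.61 (95% interval -0.99 to -0.23, adjusted p = 0.12). The basement membrane list had 0 of 24 genes passing in limma at a median of -0.37, and 5 lower genes at an unadjusted p under 0.05.

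**Figure D3:**
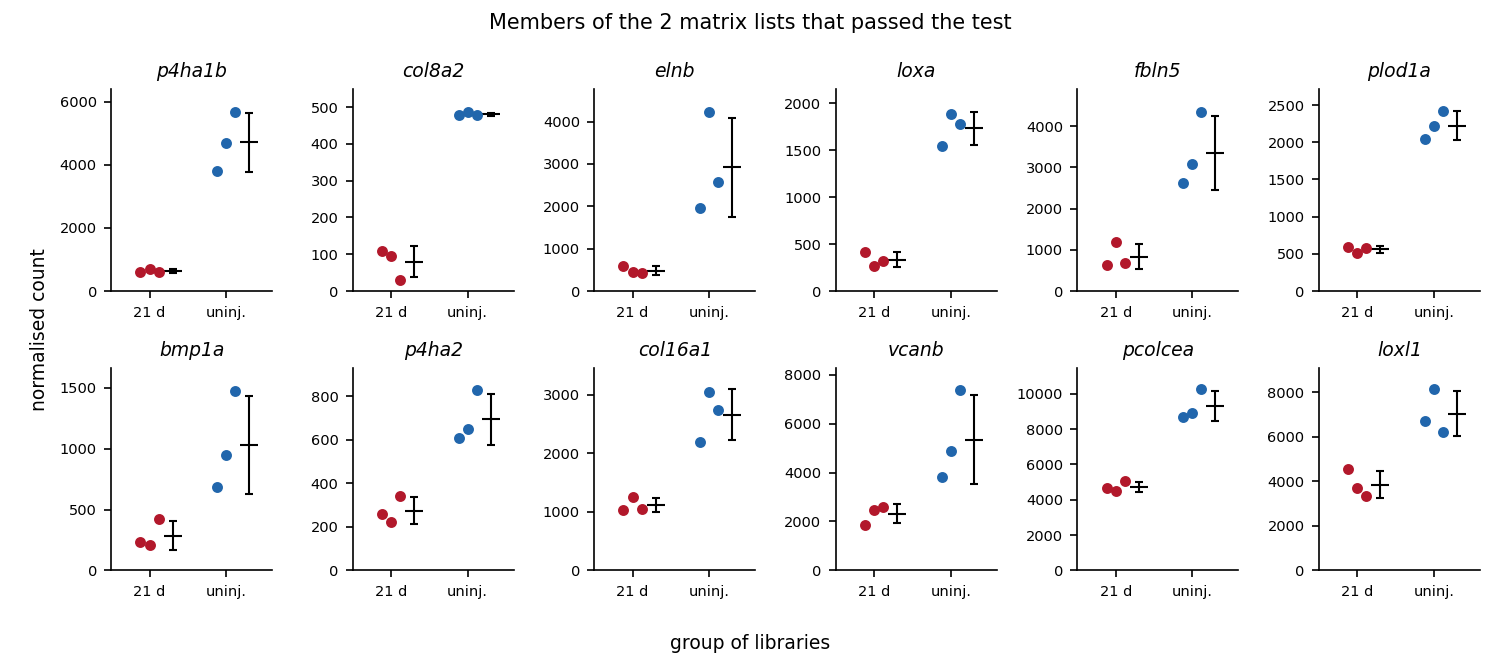
Normalised counts (vertical axes, each from 0) of the 12 genes of the collagen assembly and valve interstitial matrix lists that passed, in the 3 libraries at 21 d (red, left) and the 3 uninjured libraries (blue, right), with the mean and SD beside the points. All 12 are lower at 21 d, and elnb, fbln5, bmp1a and vcanb show a wide spread among uninjured libraries.

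Lists of matrix and of matrix-making cells were also summed over all members. The summed fibroblast and epicardial markers held 0.675%, 0.700% and 0.763% of all values at 21 d and 0.953%, 0.970% and 0.972% in uninjured tissue. For the valve interstitial matrix list, which holds the elnb, fbln5 and vcanb values given above, the shares were 0.33%, 0.328% and 0.342% at 21 d and 0.417%, 0.420% and 0.492% in uninjured tissue. Neither pair overlapped, and an exact permutation test gave p = 0.1 for each, the smallest that 3 against 3 libraries allow. The fibroblast list shares loxa and loxl1 with the collagen list, so these sums repeat genes already described and are no separate evidence. A part of cell numbers in the lower matrix genes was not tested. Of 36 fibroblast and epicardial genes, 4 fell and 1 rose, at a median of -0.50. Both platelet-derived growth factor receptors, which mark mesenchymal cells, were among the lower ones. The beta receptor pdgfrb had 895, 792 and 1048 at 21 d and 2359, 2127 and 1875 in uninjured tissue (log2 fold change -1.22, adjusted p = 0.00931), and the alpha receptor pdgfra fell by 0.89 (adjusted p = 0.0285). The guidance ligand sema3fb was higher, by 1.09 (adjusted p = 0.0464). Without 21 d 2, uninjured 1 or uninjured 2, pdgfrb missed the threshold (up to 0.0603), and pdgfra also without 21 d 3 or uninjured 3 (up to 0.142). The sema3fb call was lost without any of the 21 d libraries, uninjured 2 or uninjured 3 (up to 0.217).

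Transcription factors of the valve and its embryonic cushion moved in both directions. Of 35 tested, 2 rose (5.71%, background 0.512%) and 3 fell (8.57%, background 0.963%), at a median of -0.39. The zinc-finger factors zeb1b and zeb2b, which repress epithelial genes, were the higher ones. Counts of zeb1b were 2553, 3206 and 2973 at 21 d and 1380, 1683 and 1368 in uninjured tissue (log2 fold change 0.98, SE 0.20, adjusted p = 0.0143), and zeb2b averaged 642 ± 106 at 21 d and 230.0 ± 55.7 in uninjured tissue (1.49, adjusted p = 0.0421). The mesenchymal factor twist1b had 329, 458 and 319 at 21 d and 674, 1224 and 1733 in uninjured tissue (log2 fold change -1.63, SE 0.35, adjusted p = 0.0175). The cardiac factors gata5 (-0.73, adjusted p = 0.0367) and hand2 (-0.88, adjusted p = 0.0492) fell less. None of the 5 passed without each library in turn: leaving out uninjured 3 ended all 5 calls, leaving out any other single library of the 2 groups ended 4, and leaving out 48 h 2 ended 1, with p-values up to 0.266. The valve endothelial factor nfatc1 (0.25, 95% interval -0.27 to 0.76, adjusted p = 0.751), the flow-responsive klf2a (-0.18, -0.55 to 0.19, adjusted p = 0.752) and notch1b (0.12, -0.42 to 0.65, adjusted p = 0.897) did not pass. In limma, 0 of 33 endothelial, 30 Notch and 31 BMP genes passed. At an unadjusted p under 0.05, 2 endothelial and 2 Notch genes were higher and 2 of each lower, and 1 BMP gene was higher and 6 were lower.

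Growth hormone fell steeply from a high level. The gene gh1, which encodes the growth hormone of the pituitary, had 2882, 4370 and 3928 normalised counts at 21 d and 36019, 37953 and 40083 in uninjured tissue. Each group was tight and the gap between them wide. The gene fell by 3.37 (SE 0.24, adjusted p = 2.5e-07), and the call held without each library in turn. At 48 h it stood at -6.45, with 366, 703 and 319. Of the other pituitary hormone genes matched, lhb was listed at 0 in all 6 libraries and fshb in all but uninjured 1, where it had 27. The symbols prl, smtla, smtlb, pomca, tshba and cga were also searched and not found, so those hormones were not checked there. The origin of the gh1 reads in valve sections was not tested. Among the other non-heart markers, krt4 and rbp4 also passed as lower. The keratin krt4 had 10131, 11439 and 11761 at 21 d and 26134, 24529 and 29247 in uninjured tissue (log2 fold change -1.26, adjusted p = 0.00014). The retinol carrier rbp4 fell by 0.99 (adjusted p = 0.0129). The whole non-heart list held 0.406% ± 0.0216 of values at 21 d and 0.812% ± 0.0811 in uninjured tissue (exact permutation p = 0.1), with 8 of its members at 0 in all 6 libraries. This sum includes gh1, krt4 and rbp4, so it repeats genes already described and is no separate evidence. As a mean of log2(value + 1) over the list, the difference was -0.27. The krt4 call held without each library in turn, and that of rbp4 was lost without 21 d 2, 21 d 3, uninjured 1 or uninjured 3 (up to 0.0997).

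Around growth hormone and insulin signalling, 5 of 46 genes fell (10.9%, background 0.963%) and 1 rose (2.17%, background 0.512%), at a median of -0.22. The transcription factor foxo1a, which insulin signalling keeps out of the nucleus, had 1701, 1826 and 1992 at 21 d and 5827, 4107 and 3960 in uninjured tissue (log2 fold change -1.31, SE 0.21, adjusted p = 0.00177). The gluconeogenic enzyme gene pck2 had 122, 29 and 18 at 21 d and 353, 885 and 673 in uninjured tissue (-3.85, SE 0.60, adjusted p = 0.00176), and the mTOR inhibitor ddit4 fell by 1.16 (adjusted p = 0.00368). For foxo1a, pck2 and ddit4 the groups lay well apart and the calls held without each library in turn. Without a mean-variance trend in the fit, foxo1a and pck2 missed the threshold (adjusted p = 0.162 and 0.137). The protease pappaa, which cleaves IGF-binding proteins, fell by 1.40 (adjusted p = 0.0409). The ubiquitin ligase fbxo32, a gene of muscle atrophy, averaged 786 ± 68.7 at 21 d and 281 ± 142 in uninjured tissue (1.61, adjusted p = 0.015). Both were lost without 21 d 1, 2 or 3 or uninjured 2, and pappaa also without uninjured 1 or 3 (up to 0.0936 for fbxo32 and 0.2 for pappaa). The binding protein igfbp1a was abundant and variable, with 52443, 34695 and 55050 at 21 d and 37603, 56759 and 21727 in uninjured tissue. The igfbp1a groups overlapped fully (0.37, 95% interval -0.58 to 1.32, adjusted p = 0.793), where at 48 h the log2 fold change was -5.34.

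Clock genes moved in both directions. In the circadian clock, Clock and Bmal proteins drive the period and cryptochrome genes that shut them off, while Ror and Rev-erb receptors compete over the activators, and the bhlhe40 and bhlhe41 repressors add a further loop. Of 49 tested clock genes, 3 rose (6.12%, background 0.512%) and 2 fell (4.08%, background 0.963%), at a median of 0.18. At 48 h, 1 was higher and 22 were lower, at a median of -0.99. The Ror gene rorcb had 4491, 4613 and 3096 at 21 d and 1013, 672 and 940 in uninjured tissue (log2 fold change 2.21, SE 0.22, adjusted p = 4.3e-06), and 0.89 at 48 h. Its lowest 21 d library lay well above its highest uninjured one. The activator clocka had 357, 440 and 522 at 21 d and 109, 117 and 125 in uninjured tissue (1.89, SE 0.46, adjusted p = 0.0416). The Rev-erb gene nr1d2a averaged 19400 ± 1851 at 21 d and 11990 ± 2288 in uninjured tissue (0.71, adjusted p = 0.0466), though it was lower at 48 h, at -2.31. In the other direction, bhlhe40 had 962, 1257 and 1210 at 21 d and 4765, 5017 and 5684 in uninjured tissue (-2.18, SE 0.22, adjusted p = 4.3e-06), and bhlhe41 had 371, 1021 and 465 at 21 d against 2818, 3072 and 2911 in uninjured tissue (-2.38, SE 0.42, adjusted p = 0.015). The period genes per1b (0.18, 95% interval -0.31 to 0.68, adjusted p = 0.82) and per2 (-0.04, adjusted p = 0.976) did not pass and overlapped between groups; per2 was chosen after its values were seen. At 48 h they stood at -3.04 and -2.51. The calls of rorcb and bhlhe40 held without each library in turn. For bhlhe41 the call was lost without 21 d 3, uninjured 1 or uninjured 2 (up to 0.0775), for clocka without any of the 6 libraries (up to 0.179), and for nr1d2a without any but uninjured 1 (up to 0.244). The time of day of collection is not in the labels, so a difference in it between groups cannot be told apart from an effect of ablation.

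Glucocorticoid-responsive genes moved both ways as well, with 3 of 28 higher (10.7%, background 0.512%) and 4 lower (14.3%, background 0.963%). Their median was 0.06, and at 48 h 17 were lower and 1 higher. The kinase gene sgk1 had 12493, 13316 and 13939 at 21 d and 6146, 6823 and 6094 in uninjured tissue (log2 fold change 1.06, SE 0.16, adjusted p = 0.0007), against -1.0 at 48 h. A second kinase of that family, sgk2a (1.45, adjusted p = 0.0289), and the phosphatase dusp1 (0.84, adjusted p = 0.048) rose too. The zinc-finger gene zbtb16a had 1999, 1267 and 1422 at 21 d and 12439, 11132 and 9010 in uninjured tissue (-2.81, SE 0.25, adjusted p = 1.5e-06). Its paralog zbtb16b averaged 1345 ± 53.8 at 21 d and 3924 ± 1473 in uninjured tissue (-1.48, adjusted p = 0.00297). Neither gene overlapped between groups, and zbtb16a stood at -3.12 and zbtb16b at -2.83 at 48 h. The remaining lower members were ddit4 and pdk4, given above. The calls of sgk1, zbtb16a, zbtb16b and ddit4 held without each library in turn, those of sgk2a and dusp1 were lost without any of the 6 libraries (up to 0.173), and that of pdk4 without 21 d 2, 21 d 3 or uninjured 1 (up to 0.0779).

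By number, the macrophage list held more higher genes than any other list examined. By share, the glucocorticoid list stood slightly above it (10.7%). Of 48 tested markers, 5 rose (10.4%, against a background of 0.512%) and 0 fell, and 38 of the 48 lay above 0, with a median of 0.59. At 48 h, 33 were higher and 1 lower, at a median of 1.72. Without a mean-variance trend in the fit, 0 rose at 21 d. The perforin-like mpeg1.1, a marker of macrophages in zebrafish, had 352, 709 and 414 at 21 d and 92, 123 and 222 in uninjured tissue (log2 fold change 1.78, SE 0.37, adjusted p = 0.0138), against 2.65 at 48 h. Its groups did not overlap, though uninjured 3 reached 222. The antigen-presentation chaperone cd74b had 2267, 2641 and 2303 at 21 d and 888, 1116 and 1204 in uninjured tissue, and was 2.26-fold higher on the model's scale (adjusted p = 0.00428). The secreted scavenger protein gene lgals3bpb had 432, 620 and 778 at 21 d and 188, 66 and 200 in uninjured tissue (2.12, SE 0.39, adjusted p = 0.00599). The pan-leukocyte phosphatase ptprc rose by 1.47 (adjusted p = 0.0166) and the complement chain c1qc by 1.34 (adjusted p = 0.039). The summed macrophage markers held 0.139%, 0.153% and 0.175% of all values at 21 d and 0.132%, 0.118% and 0.123% in uninjured tissue, without overlap and with an exact permutation p of 0.1. At 48 h they held 0.382% ± 0.0399. Neutrophil markers ran the other way in sum, with 0.123% ± 0.0165 at 21 d and 0.159% ± 0.0178 in uninjured tissue (exact permutation p = 0.1) and 0 of 29 genes passing in limma, with 4 higher and 5 lower at an unadjusted p under 0.05. As a mean of log2(value + 1) over the list, neutrophil markers were higher at 21 d by 0.394. The neutrophil peroxidase mpx had 126, 24 and 51 at 21 d and 0, 0 and 119 in uninjured tissue, and the groups overlapped (adjusted p = 0.327). Without uninjured 3, which held 119, mpx passed (adjusted p = 0.0443).

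Of 55 interferon and antigen-presentation genes, 3 rose (5.45%, background 0.512%) and 0 fell, at a median of 0.77, with 45 above 0. Besides cd74b these were the antiviral GTPase mxa, with 275, 976 and 337 at 21 d and 132, 59 and 137 in uninjured tissue (2.12, SE 0.43, adjusted p = 0.0143), and the class I gene mhc1zea (1.12, adjusted p = 0.0289). The interferon-induced ifit16, which the rule also named, had 290, 923 and 327 at 21 d and 74, 35 and 173 in uninjured tissue (2.52, adjusted p = 0.0198). For both mxa and ifit16 library 21 d 2 was by far the highest, and without it the calls were lost (adjusted p = 0.109 and 0.125). Reads of mxa, mhc1zea and ifit16 may be shared with close relatives in multigene families, so these values are uncertain. The interferon gene ifnphi3 fell instead, with 14, 122 and 24 at 21 d and 791, 1157 and 848 in uninjured tissue (-4.68, adjusted p = 0.0439), and was at 0, 0 and 9 at 48 h. Across the leukocyte and interferon genes, cd74b alone passed without each library in turn. The mpeg1.1 call was lost without 21 d 2, uninjured 1 or uninjured 2 (up to 0.112), that of lgals3bpb without 21 d 3 (0.0548), and those of mxa and ifit16 also without uninjured 2 (0.0843 and 0.0871), ifit16 in addition without uninjured 1 (0.102). For ptprc the losses came without 21 d 2, 21 d 3, uninjured 1 or uninjured 2 (up to 0.128), and for c1qc, mhc1zea and ifnphi3 without 5 or 6 of the 6 libraries (up to 0.208, 0.179 and 0.245).

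**Figure D4:**
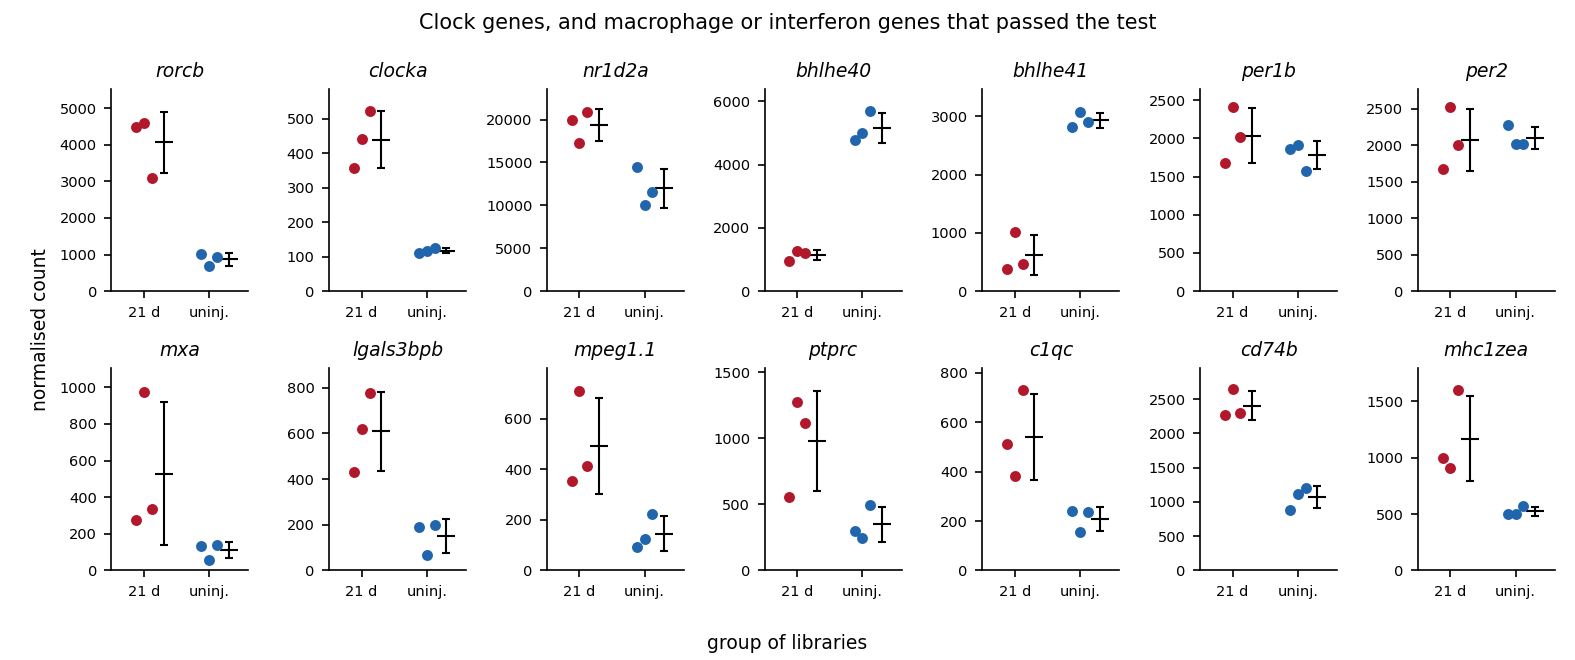
Normalised counts (vertical axes, each from 0) in the 3 libraries at 21 d (red, left) and the 3 uninjured libraries (blue, right), with the mean and SD beside the points, of 5 clock genes that passed with per1b and per2, which did not (top row), and of 7 macrophage or interferon genes that passed (bottom row). The rorcb, clocka and nr1d2a values lie higher at 21 d, bhlhe40 and bhlhe41 lower, per1b and per2 overlap, and all 7 genes of the bottom row lie higher at 21 d.

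Of 62 mitosis genes, 0 passed in either direction in limma, at a median of 0.59 with 48 above 0, and 9 were higher and 0 lower at an unadjusted p under 0.05. At 48 h, 38 were higher at a median of 2.74. The DNA replication list had 0 of 59 passing, with 7 higher and 1 lower at an unadjusted p under 0.05. Over all tested genes, 2075 of 16614 reached that unadjusted level in either direction. The proliferation marker mki67 had 446, 749 and 855 at 21 d and 456, 727 and 400 in uninjured tissue (log2 fold change 0.37, 95% interval -0.28 to 1.01, adjusted p = 0.694), and pcna 0.20 (-0.32 to 0.72, adjusted p = 0.818). Their groups overlapped, and the intervals include both no change and, for mki67, a doubling. The summed mitosis genes held 0.0399% ± 0.00725 of values at 21 d and 0.0268% ± 0.00378 in uninjured tissue, without overlap (exact permutation p = 0.1), and 0.194% ± 0.067 at 48 h. The cell-cycle inhibitors cdkn1a and cdkn1ba moved apart: cdkn1a had 691, 805 and 600 at 21 d and 252, 248 and 193 in uninjured tissue (1.59, SE 0.33, adjusted p = 0.0143), and cdkn1ba 997, 853 and 691 at 21 d and 1700, 1460 and 1881 in uninjured tissue (-1.0, SE 0.23, adjusted p = 0.0306). The cdkn1a call was lost without 21 d 1, 21 d 2 or uninjured 3 (up to 0.0907), and that of cdkn1ba without any of the 6 but 21 d 1 (up to 0.148).

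Of 53 genes of growth factor and receptor tyrosine kinase signalling, 3 rose (5.66%, background 0.512%) and 4 fell (7.55%, background 0.963%). The median was 0.13, with 30 genes above 0. The lower genes were 1 ligand and 3 receptors. The phosphatase dusp6, the inhibitor spry4 and the ETS factor etv5a are switched on by ERK signalling and restrain or mediate it. Counts of dusp6 were 10757, 12083 and 8230 at 21 d and 6444, 5271 and 5428 in uninjured tissue (0.85, adjusted p = 0.0137), while spry4 rose by 0.96 (adjusted p = 0.0233) and etv5a by 1.0 (adjusted p = 0.0488). The vascular growth factor vegfab, itself a target of oxygen sensing, had 1966, 2717 and 2363 at 21 d and 5625, 7018 and 6612 in uninjured tissue (-1.46, SE 0.22, adjusted p = 0.00119). The receptor fgfr1a fell by 1.44 (adjusted p = 0.0132), beside pdgfrb and pdgfra. The vegfab call held without each library in turn. That of dusp6 was lost without 21 d 1, 21 d 2, uninjured 2 or uninjured 3 (up to 0.0997), that of fgfr1a without 21 d 1, 21 d 3, uninjured 1 or uninjured 3 (up to 0.0826), that of spry4 without any but 21 d 3 (up to 0.143), and that of etv5a without any of the 6 (up to 0.231).

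Of 42 TGF-beta pathway genes, ctgfb alone passed, as lower (2.38%, background 0.963%). This matricellular target of TGF-beta and Yap had 178, 194 and 284 at 21 d and 781, 892 and 1007 in uninjured tissue (log2 fold change -2.05, SE 0.34, adjusted p = 0.0024), and -2.20 at 48 h, and its call held without each library in turn. Its relative cyr61 fell by 0.77 (adjusted p = 0.0466), lost without any of the 6 libraries but uninjured 1 (up to 0.236). The ligand tgfb1b (0.02, 95% interval -0.63 to 0.67, adjusted p = 0.987) and the signal transducers smad3a (-0.13, -0.63 to 0.38, adjusted p = 0.885) and smad3b (0.10, -0.65 to 0.85, adjusted p = 0.94) overlapped between groups. The cytokine il11a had 30, 32 and 27 at 21 d and 25, 11 and 0 in uninjured tissue, without overlap but at low values (2.17, -0.11 to 4.46, adjusted p = 0.433), and 367, 464 and 652 at 48 h. The Wnt ligand wnt2bb, the single Wnt pathway gene of 52 to pass, had 891, 708 and 658 at 21 d and 300, 291 and 336 in uninjured tissue (1.27, SE 0.31, adjusted p = 0.0429), lost without any of the 6 libraries (up to 0.19).

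Of 50 heart-muscle genes, 1 was higher and 0 were lower, at a median of -0.02, where 27 were lower at 48 h. The one was xirp1, an actin-binding repeat protein of the intercalated disc, with 22052, 15392 and 19901 at 21 d and 11903, 6835 and 5175 in uninjured tissue (1.33, SE 0.28, adjusted p = 0.0367), lost without any of the 6 libraries but uninjured 1, or without 48 h 2 (up to 0.129). The myosin light chain myl7 had 86734, 64050 and 72917 at 21 d and 82079, 63368 and 66030 in uninjured tissue (0.08, 95% interval -0.30 to 0.46, adjusted p = 0.901). The chaperone of the endoplasmic reticulum hspa5 (0.12, -0.26 to 0.49, adjusted p = 0.853), higher at 48 h by 1.5, also overlapped. Of 40 cytosolic heat-shock genes, hsp70l and hsp70.3 fell, from a family of near-identical copies that makes both uncertain. Counts of hsp70l were 56, 27 and 84 at 21 d and 435, 250 and 357 in uninjured tissue (-2.73, SE 0.50, adjusted p = 0.00662, held without each library), and hsp70.3 fell by 3.22 (adjusted p = 0.0466), lost without 21 d 1, 21 d 3, uninjured 1, uninjured 3 or 48 h 1 (up to 0.179). The stress factor atf3 rose, with 4963, 3594 and 3572 at 21 d and 1683, 2851 and 1419 in uninjured tissue (1.07, adjusted p = 0.0421), lost without any but uninjured 2 (up to 0.203).

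**Figure D5:**
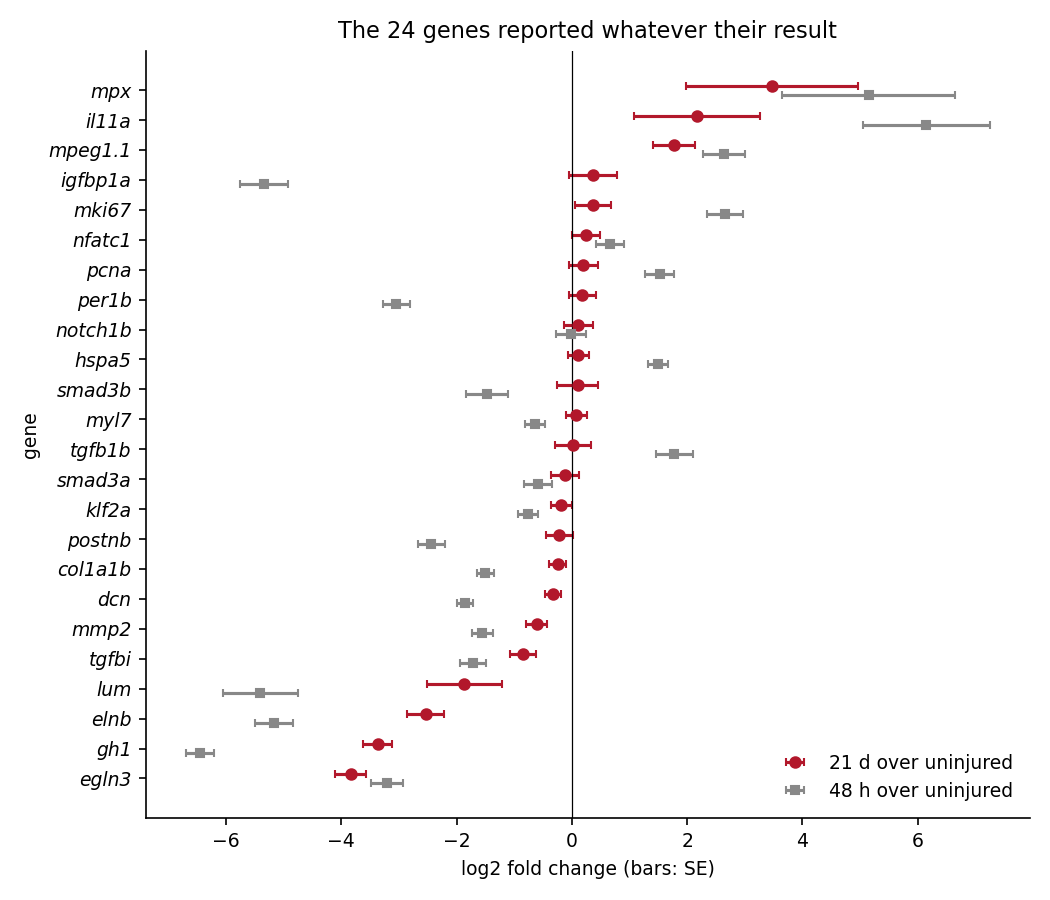
Log2 fold change (horizontal axis, bars are SE) of 24 genes reported whatever their result, at 21 d over uninjured tissue (red circles) and at 48 h over the same uninjured libraries (grey squares). The 24 genes were chosen with earlier results of these data known, so they are not an unselected sample. The genes egln3, gh1 and elnb lie far below 0 and mpeg1.1 above it at both times, while per1b, igfbp1a, mki67, hspa5 and postnb lie near 0 at 21 d and away from it at 48 h.

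The plot of these 24 genes puts both times side by side. Both use the same uninjured libraries, so their errors are shared. Of these genes, egln3, gh1, elnb and mpeg1.1 passed at 21 d.

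Among passing genes with a mean of 50 or more, the 12 highest were led by espnla, an espin-like actin bundler, with 360, 309 and 315 at 21 d and 30, 0 and 16 in uninjured tissue (log2 fold change 5.34, SE 1.22, adjusted p = 0.0289). The transporter slc6a22.2 had 398, 271 and 228 at 21 d and 50, 6 and 83 in uninjured tissue (3.23, adjusted p = 0.036). After them came gabrb2, a subunit of the GABA receptor (2.45, adjusted p = 0.02), cplx2, a complexin of vesicle release (2.14, adjusted p = 0.0121), rai1 (2.24, adjusted p = 0.0289), asb15b (2.23, adjusted p = 0.0306), asb2a.1 (2.21, adjusted p = 0.00704) and the A-kinase anchor sphkap (1.95, adjusted p = 0.00102), beside ifit16, rorcb, mxa and lgals3bpb. None of these overlapped between groups, and sphkap held without each library in turn. The asb2a.1 call was lost without 21 d 2 (0.051), that of cplx2 without 21 d 1, 21 d 3 or uninjured 2 (up to 0.0912), and those of espnla, slc6a22.2, gabrb2, rai1 and asb15b without 4 or 5 of the 6 libraries (up to 0.145, 0.168, 0.136, 0.184 and 0.161).

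The 12 lowest were led by genes at or near 0. Values of si:ch211-190k17.19 were 0 in all 3 libraries at 21 d and 265, 713 and 116 in uninjured tissue (adjusted p = 0.00014), and 274, 189 and 199 at 48 h. For si:dkey-282h22.5 they were 0 in all 3 at 21 d and 204, 55 and 49 in uninjured tissue (adjusted p = 0.0429). A failed estimate at 0 in the deposited table was not tested. The glycogen-targeting phosphatase subunit ppp1r3aa had 130, 220 and 252 at 21 d and 2228, 3182 and 2111 in uninjured tissue (-3.67, SE 0.31, adjusted p = 7.4e-07), against -3.50 at 48 h. The prostaglandin synthase ptgs2a had 38, 0 and 0 at 21 d and 64, 164 and 105 in uninjured tissue (adjusted p = 0.0466), and the sinoatrial factor shox2 had 4, 60 and 0 at 21 d against 367, 139 and 140 in uninjured tissue (adjusted p = 0.0488). The kinase stk25a (-4.08, adjusted p = 0.0147), the protocadherin pcdh1g2 (-3.83, adjusted p = 0.0149), the carbonic anhydrase relative ca8 (-4.14, adjusted p = 0.0492) and the cytochrome cyp1c2 (-3.85, adjusted p = 0.0479) were also low at 21 d. The ppp1r3aa call held without each library in turn. That of si:ch211-190k17.19 held without any 1 of the 21 d or 48 h libraries. For si:dkey-282h22.5 the call was lost without 21 d 1, 2 or 3 or 48 h 1 or 2 (up to 0.102). Without any 1 uninjured library, si:ch211-190k17.19 and si:dkey-282h22.5 missed the filter and were not tested. The stk25a call was lost without uninjured 1, 2 or 3 (up to 0.087), that of pcdh1g2 without uninjured 2 or 3 (up to 0.137), and those of ptgs2a, shox2, ca8 and cyp1c2 without 7 or 8 of the 9 libraries (up to 0.209, 0.228, 0.196 and 0.233). Counts of pcdh1g2 may be shared with other members of its protocadherin cluster.

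The remaining genes named by a list were few per list. From the fatty-acid oxidation list, pdk4 was joined by angptl4, an inhibitor of lipoprotein lipase, at 845, 1591 and 1704 at 21 d and 6275, 11264 and 7668 in uninjured tissue (-2.63, SE 0.45, adjusted p = 0.0265). In the thyroid and nuclear hormone list, 2 genes fell: the nuclear receptor corepressor nrip1b (-1.41, adjusted p = 0.00581) and the cytochrome cyp1b1 (-1.30, adjusted p = 0.0143). In the lymphocyte list mef2cb, which heart tissue also expresses, alone passed, as lower (-1.06, adjusted p = 0.0479), while 18 of 21 members lay above 0 at a median of 1.07. At an unadjusted p under 0.05 in limma, 1 lymphocyte gene was higher and 2 were lower. The summed lymphocyte markers held 0.0169% ± 0.00251 of values at 21 d and 0.0135% ± 0.000669 in uninjured tissue, without overlap (exact permutation p = 0.1). The phosphate transporter slc20a1a, from the calcification list, had 9218, 8733 and 8648 at 21 d and 3693, 3655 and 3749 in uninjured tissue (1.26, SE 0.27, adjusted p = 0.028), with very little spread inside either group. It alone of 30 genes in that list passed, and 9 of the 30 lay above 0, at a median of -0.69. The synaptotagmin syt1a had 4569, 4175 and 2828 at 21 d and 1546, 1448 and 1616 in uninjured tissue (1.30, SE 0.21, adjusted p = 0.00168) and held without each library in turn. The calls lost without 1 library were nrip1b without uninjured 2 (0.0583), cyp1b1 without 21 d 3, uninjured 1 or uninjured 3 (up to 0.0971), angptl4 without 21 d 2 or any uninjured library (up to 0.0659), mef2cb without any but uninjured 1 (up to 0.234) and slc20a1a without any of the 6 or 48 h 1 (up to 0.109).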

How the data were processed

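The deposited table holds a normalised signal per gene in whole numbers: read counts divided by a size factor, so column totals differ between libraries. Per the submitters' processing notes, the tools were FastQC 0.11.8, Trimmomatic 0.33, STAR 2.6.0c, featureCounts 1.6.0 and DESeq2 1.18.1, with danRer11 (GRCz11); strand and duplicate settings are not given in the sources used here. Per the labels, libraries were directional and polyA-selected.

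Deposited values were log2-transformed after adding 1 and fitted over all 9 libraries with limma 3.58.1 in R 4.3.3. The variance prior followed the mean (trend) and was robust, and 6 residual degrees of freedom remained. Fold changes are on that scale and understate the change of low genes. Tests were two-sided, with Benjamini-Hochberg adjustment over 16614 genes and a threshold of 0.05. The filter left out 5078 genes: the 1494 just outside it, with 10 or more in 2 libraries, had a median mean of 9.0, and the 1215 just inside, with 3 libraries, 15.7. Group values are means ± SD of deposited values. Shares of a marker list were compared by two-sided exact permutation tests. The fit was tested on simulated data. Genes were named as the 12 highest and 12 lowest passing genes with a mean of 50 or more, the 2 passing genes with the smallest adjusted p in each list, and 24 chosen genes; all passing members of the main lists were added after their values were seen. The members and lists were chosen with earlier results of these data known. A passing member of a list is not reported here. No genome or sequence of the files' build was used, so no coordinates are given. Whole reads could not be recovered from the rounded values, so the depth behind single values is unknown. Same-numbered libraries of the 2 groups deviated with correlations of 0.0144, -0.00262 and -0.00793 across genes, so no strong shared deviation was seen. The labels do not say whether a number marks a shared day or animal, and these correlations cannot settle it. Figures were drawn with matplotlib 3.10.9 under Python 3.11.15, and tables made with pandas 2.3.3, scipy 1.17.1 and numpy 2.4.6.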

Additional observations from a re-analysis of the deposited data

Results flagged for a closer look

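In 13 genes that passed at both times, the change against uninjured tissue ran in opposite directions at 21 d and at 48 h. A passing direct comparison of 21 d with 48 h was part of the rule that chose them. Its adjusted p-values come from the same limma fit and are no separate evidence. The comparisons with uninjured tissue share their 3 libraries. Of the clock, hormone-responsive and stress genes described above, nr1d2a differed between 21 d and 48 h by a log2 of 3.02 (21 d over 48 h, adjusted p = 6.9e-10), sgk1 by 2.06 (1.8e-08), dusp1 by 1.91 (2.5e-06) and atf3 by 2.28 (5.2e-06). The phosphate transporter slc20a1a differed by 2.95 (1.5e-06). Among genes not described above, cited4a, a transcriptional coactivator of the CITED family, had 14806, 11318 and 10670 at 21 d and 7847, 6373 and 4129 in uninjured tissue, and differed by 3.9 between the times (5.5e-09). The factor hif1al2, named for its likeness to the alpha subunit of the hypoxia-inducible factor, had 12230, 10929 and 11075 at 21 d and 4067, 6872 and 6303 in uninjured tissue, and differed by 1.84 (1.2e-06). For midn the difference was 2.56 (5.7e-09), for herc1 1.73 (1.9e-06), for lmbr1l 3.98 (5.8e-07) and for si:ch211-227m13.1 2.6 (1.9e-07). In the 11 genes named so far the value was higher than in uninjured tissue at 21 d and lower at 48 h. The receptor tnfrsf11a (-2.95, adjusted p = 8.6e-07) and the amino-acid transporter slc43a2b (-4.13, adjusted p = 1e-06) were lower than uninjured tissue at 21 d and higher at 48 h. At 21 d against uninjured tissue, the calls of sgk1, midn and slc43a2b held without each library in turn, and that of hif1al2 was lost without uninjured 1 (adjusted p = 0.0511). Without uninjured 2, those of cited4a (0.107), herc1 (0.148), lmbr1l (0.234) and tnfrsf11a (0.0559) were lost, and without 21 d 3 that of si:ch211-227m13.1 (0.0759); other libraries ended them too.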

How the results depend on the processing

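None of the 245 genes that passed changed direction in any of 20 alternatives. Their values did not overlap between the groups, so only a changed normalisation could have reversed a direction. Of the 245, 17 genes, 2 higher and 15 lower, missed the threshold in none of the 20. An alternative in which the filter dropped a gene did not count against it. The counts and the genes rested on the variance model. Without the mean-variance trend 13 genes were higher and 46 lower, of which only 4 and 18 were among the 245. With only the 6 libraries of the 2 groups in the fit, 146 were higher and 266 lower, of which 82 and 154 were among the 245. The cause was not tested. Leaving out 1 library gave 26 to 106 higher and 57 to 202 lower genes. With the replicate number as a block, 72 genes were higher and 150 lower. Several calls that held without each library in turn were lost without the mean-variance trend. Among them were sgk1 and cd74b (adjusted p = 0.136 each), vegfab (0.186), fbln5 (0.221), loxa (0.0959), krt4 (0.134) and syt1a (0.158). Those of egln3, p4ha1b, gh1, elnb and rorcb held there. Without the trend, 0 members passed as higher in the interferon and glucocorticoid lists, and 0 in either direction in the receptor tyrosine kinase and valve transcription lists.

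As a mean of log2(value + 1) in place of a share, the difference between 21 d and uninjured tissue was -0.639 for valve interstitial, -0.499 for fibroblast, -0.737 for smooth-muscle, 0.394 for neutrophil, -0.403 for Schwann, neuron and pigment, and -0.270 for non-heart markers. By share, smooth-muscle markers held 0.646% ± 0.0468 at 21 d and 0.659% ± 0.0706 in uninjured tissue. Schwann, neuron and pigment markers held 0.0686% ± 0.00557 at 21 d and 0.0621% ± 0.00403 in uninjured tissue, and both pairs of shares overlapped. For the neutrophil list and the Schwann, neuron and pigment list, share and log2 mean thus ran in opposite directions. With the 10 highest genes left out of the total, the shares of fibroblast and non-heart markers differed by -0.290 and -0.492 percentage points. Among the 20 named genes that did not pass, 5 changed sign when 1 library was left out, with log2 fold changes of -0.2145 to 0.0308 for smad3a, -0.1791 to 0.2974 for tgfb1b, -0.0352 to 0.1939 for myl7, -0.1982 to 0.364 for smad3b and -0.1012 to 0.3523 for notch1b. Under quantile normalisation tgfb1b was at -0.0038.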

Other observations

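Beside the hypoxia and glycolysis list, other genes that respond to low oxygen in mammalian cells were among the lower ones; they were chosen after their values were seen, so no count of them is a test. The coactivator cited2, which competes with the hypoxia-inducible factor for its partner, had 210, 394 and 282 at 21 d and 1975, 3616 and 3284 in uninjured tissue (log2 fold change -3.32, SE 0.33, adjusted p = 4.5e-06), and -2.58 at 48 h. The ubiquitin ligase subunit wsb1 had 2811, 3376 and 3202 at 21 d and 10539, 14549 and 10419 in uninjured tissue (-1.91, SE 0.18, adjusted p = 2.6e-06). The lactate exporter slc16a3 averaged 4934 ± 743 at 21 d and 9497 ± 553 in uninjured tissue (-0.95, adjusted p = 0.00761), and pfkfb4a, a relative of pfkfb3, had -1.87 (adjusted p = 0.00917). Both cited2 and wsb1 held without each library in turn; slc16a3 was lost without 21 d 2 (0.0553) and pfkfb4a without uninjured 2 or 3 (up to 0.0627).

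Among single lower genes chosen after their values were seen, 3 act on protein synthesis; regulators of translation were not examined as a list. The elongation factor kinase eef2k had 1596, 1344 and 1083 at 21 d and 4293, 4644 and 4671 in uninjured tissue (-1.77, adjusted p = 0.00016). The translation repressor eif4ebp3l had 1295, 927 and 1228 at 21 d and 4818, 3986 and 2923 in uninjured tissue (-1.75, adjusted p = 0.00257), and the kinase mknk2b, which acts on the cap-binding factor, averaged 7496 ± 520 at 21 d and 22160 ± 1791 in uninjured tissue (-1.56, adjusted p = 1e-05). Of 91 ribosomal protein genes, 0 passed, at a median of 0.03.

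A further 4 higher genes, chosen after their values were seen, encode actin or sarcomere-linked proteins that the heart-muscle list does not hold, and such genes were not examined as a list. The thin-filament nucleator lmod2b had 19476, 20272 and 15945 at 21 d and 10529, 6746 and 9658 in uninjured tissue (1.07, SE 0.18, adjusted p = 0.00343). The filamin flncb (0.70, adjusted p = 0.0467), the supervillin svila (0.74, adjusted p = 0.048) and the scaffold sorbs2b (0.90, adjusted p = 0.0307) rose by less, and each of these 3 was lost without any 1 of the 6 libraries (up to 0.195). Heart-muscle markers as a whole held 8.10% ± 0.720 of values at 21 d and 7.94% ± 0.739 in uninjured tissue.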
